A study of Mus musculus with 3 samples.

Results

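The genes described here are 10 steroid-converting enzyme genes of the mouse epididymis, the coiled tube where sperm from the testis mature and are stored. They were taken by symbol (Srd5a1, Srd5a2, Srd5a3, Hsd17b4, Hsd17b10, Hsd17b11, Hsd11b1, Akr1b7, Akr1c14 and Cyp17a1), and all 10 were present among 23519 genes with values. RNA sequencing was done on epididymis of adult male ICR mice, an outbred strain, in 3 groups that drew on 13 animals. The Sham group (3 mice) had the surgery without removal of the testes. The Cas+CO group (5 mice) was castrated on both sides with the epididymides left in place and then given corn oil, the vehicle. The Cas+T group (5 mice) was castrated in the same way and, from 14 days after surgery, given testosterone propionate in corn oil under the skin at 5 mg/kg for 10 days in a row. For Cas+CO, 14 days after surgery are listed but no number of days of corn oil. A difference in time since castration, if there was one, cannot be told apart from testosterone in Cas+T against Cas+CO. No injection is recorded for Sham, so the vehicle and castration cannot be told apart in ratios over Sham. A group has 1 library, and whether that library pools its mice is not stated. No value therefore has a replicate error, no test across animals exists, and each ratio below compares 2 libraries.

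Androgens enter target cells as testosterone, which the steroid 5-alpha reductases turn into dihydrotestosterone, a stronger ligand of the androgen receptor. Other enzymes make, inactivate or reactivate steroids: the P450 enzyme Cyp17a1 makes androgen precursors, the hydroxysteroid dehydrogenases and the aldo-keto reductases swap hydroxyl and keto groups on the steroid rings, and sulfotransferases and glucuronosyltransferases tag steroids for removal. The epididymis is known for strong 5-alpha reductase activity, and many of these enzymes also act on fatty acids, aldehydes or prostaglandins.

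Promoter sequences are shown for the 3 genes that were lower in Cas+CO than in Sham and had an entry in the RefSeq promoter table (build GRCm38.p6). That table held 8 of the 10 genes. Each line gives the 250 bases before the start site of that table, 5′ to 3′ on the strand of the gene. These start sites differ from the GENCODE gene coordinates given below. The Akr1b7 and Srd5a2 windows overlap their GENCODE genes. Of the windows searched but not shown, those of Hsd17b11, Hsd17b10 and Srd5a3 overlap theirs in part. Those of Hsd11b1 and Akr1c14 lie wholly inside theirs. Capitals mark TGTTCT, the better conserved arm of the androgen and glucocorticoid response element. The windows are chr6:34412112-34412361 on the plus strand for Akr1b7, chr13:69611464-69611713 on the minus strand for Srd5a1 and chr17:74047861-74048110 on the minus strand for Srd5a2.
Akr1b7: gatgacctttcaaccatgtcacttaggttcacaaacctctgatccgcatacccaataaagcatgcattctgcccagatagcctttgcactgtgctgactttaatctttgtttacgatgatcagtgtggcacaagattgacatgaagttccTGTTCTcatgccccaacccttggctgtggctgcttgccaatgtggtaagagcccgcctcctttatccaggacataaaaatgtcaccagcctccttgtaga
Srd5a1: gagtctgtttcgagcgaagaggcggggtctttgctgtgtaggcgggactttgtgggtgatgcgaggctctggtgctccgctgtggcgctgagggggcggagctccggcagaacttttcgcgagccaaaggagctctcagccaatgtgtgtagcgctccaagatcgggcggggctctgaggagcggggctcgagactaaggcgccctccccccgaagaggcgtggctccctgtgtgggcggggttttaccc
Srd5a2: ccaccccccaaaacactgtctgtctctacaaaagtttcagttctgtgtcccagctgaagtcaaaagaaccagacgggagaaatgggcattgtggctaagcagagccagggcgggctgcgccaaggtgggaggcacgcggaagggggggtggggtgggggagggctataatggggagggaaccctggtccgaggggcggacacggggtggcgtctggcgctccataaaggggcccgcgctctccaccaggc
TGTTCT was searched on both strands and occurred once in the Akr1b7 window, from −100 to −95, where −1 is the base before the start site. It was in none of the other 7 windows of the set, and in 16.1% of the 32851 promoter windows of the same length in the table. The full palindromic androgen response element, with both arms exact, was in none of the 8 windows and in 3 of all windows. AGGAAG, a sequence that ETS factors can bind, was in 1 of the 8 windows, that of Hsd17b11, and in 29.5% of all windows. A match is a string of letters and not a tested binding site.

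Values are TPM, a measure of transcript abundance corrected for gene length with 1 total for all libraries, which allows levels of different genes to be compared within a library but keeps no sequencing depth. The depth is therefore unknown and no counting interval is given. Because totals are fixed, a value depends on all other genes of its library. The median gene was at 2.27 TPM in Sham, 5.04 TPM in Cas+CO and 2.83 TPM in Cas+T; the cause of this shift was not tested. Bringing the libraries to the same median over expressed genes (median scaling) shifted Cas+CO by −0.80 and Cas+T by −0.35 in log2 units. The labelled tissue was checked against its markers. All 8 epididymal principal cell markers were detected in every library, and the 6 general epithelial markers summed to 1192 TPM in Sham, 1652 TPM in Cas+CO and 1450 TPM in Cas+T. All values are of whole tissue, in which fewer cells of a type and less RNA per cell cannot be told apart.

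Cas+CO was first set against Sham, a comparison in which castration and the vehicle cannot be told apart. Srd5a1, Srd5a2, Akr1b7 and Cyp17a1 were lower in the castrated library by at least 2-fold, and Hsd17b11, Hsd11b1 and Akr1c14 were higher by at least 2-fold. Srd5a3, Hsd17b4 and Hsd17b10 lay within 2-fold. The limit was applied to log2 ratios of TPM + 1 for genes that reached 1 TPM in either library. Lower calls thus numbered 4 of 10 members, where 6.48% of 16182 genes were lower, and higher calls numbered 3 of 10, where 37.6% of genes were higher. Cyp17a1 passed the minimum only through Sham and Akr1c14 only through Cas+CO. Each entered through the library where it was high and had to differ in that direction. The median log2 ratio was 0.53 over the members and 0.76 over all genes compared. After median scaling the 4 lower members were still lower by at least 2-fold, where 12.4% of all genes were, and 0 of 9 members were higher, where 13.7% were; Akr1c14 then missed the minimum and was not compared.

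The treated castrated library was then set against the vehicle library, both from mice without testes. Srd5a1, Srd5a2, Akr1b7 and Cyp17a1 were at least 2-fold higher with testosterone, and Hsd17b11, Hsd11b1 and Akr1c14 at least 2-fold lower. Higher calls were 4 of 10 members, where 6.9% of 16165 genes were higher, and lower calls 3 of 10, where 23.4% were lower. Here Cyp17a1 passed the minimum only through Cas+T and Akr1c14 only through Cas+CO, so the direction of both was again fixed. Under median scaling, 4 of 9 members were higher, where 10.0% of all genes were, and 0 were lower, where 12.8% were. Both comparisons use the same Cas+CO library, so an error in that library would move a gene one way in the first and the other way in the second.

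The third comparison, Cas+T against Sham, asked how the treated castrated library differed from the intact one. Of 9 members compared, 0 were at least 2-fold higher, where 5.19% of 14631 genes were, and 0 at least 2-fold lower, where 2.75% were. Their log2 ratios lay between −0.35 for Akr1b7 and 0.50 for Hsd17b11. Under median scaling they lay between −0.70 for Akr1b7 and 0.16 for Hsd17b11, again with 0 members higher and 0 lower, where 2.16% and 4.08% of all genes were. Akr1c14 was under 1 TPM in both libraries and was not compared.

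**Figure D1:**
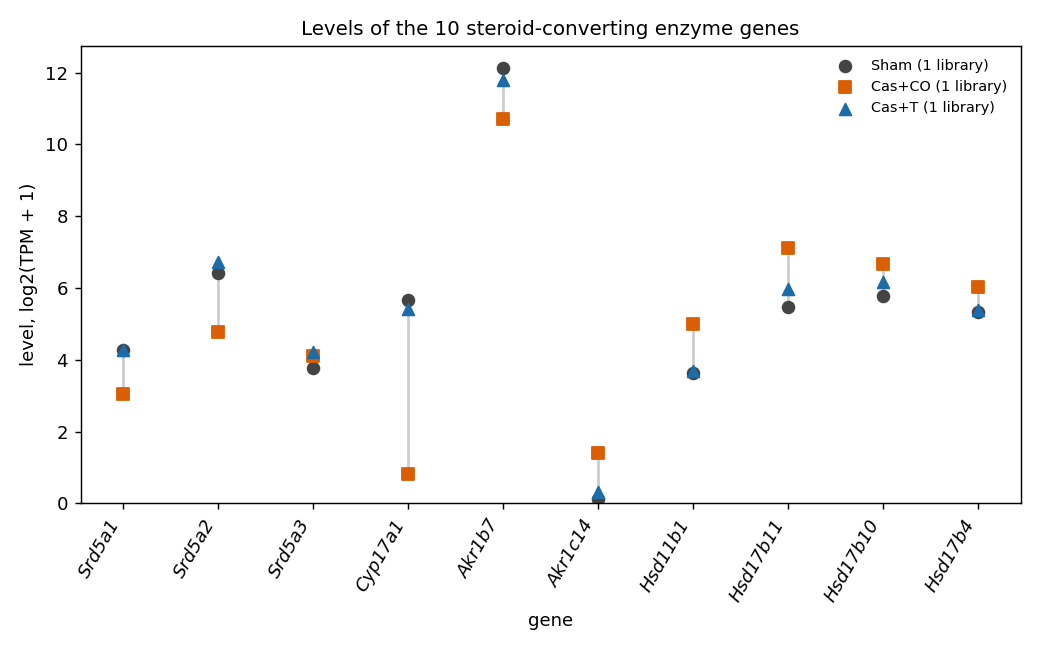
Levels of the 10 genes in the 3 libraries on the log2(TPM + 1) scale; each symbol is 1 library and the grey line joins the lowest and highest. Cas+CO squares sit lowest for Srd5a1, Srd5a2, Cyp17a1 and Akr1b7 and highest for Akr1c14, Hsd11b1, Hsd17b11, Hsd17b10 and Hsd17b4.

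**Figure D2:**
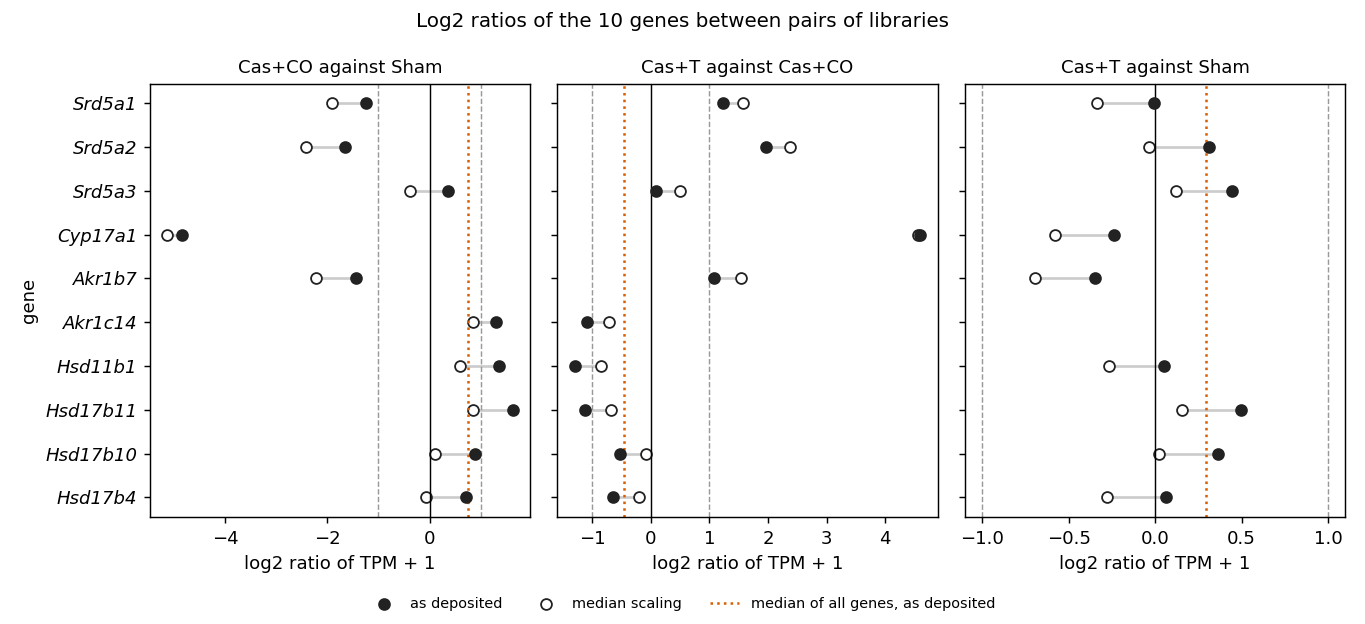
Log2 ratios of TPM + 1 for each gene in the 3 comparisons, as deposited (filled) and after median scaling (open); dashed lines mark 2-fold, and the dotted line is the median of all genes as deposited. The horizontal scales differ between panels, and the open point of Akr1c14 lies under the 1 TPM minimum. Cyp17a1 stands farthest from 0, at −4.84 in Cas+CO against Sham and 4.60 in Cas+T against Cas+CO.

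The 5-alpha reductases did not move as a block. Srd5a2 (ENSMUSG00000038541; chromosome 17, 74016955 to 74047916, GRCm38) encodes the type 2 isozyme, whose loss in people leaves the external genitalia of boys incompletely formed. It was at 84.7 TPM in Sham, 26.3 TPM in Cas+CO and 105 TPM in Cas+T. The castrated vehicle library was thus 3.22-fold under Sham in TPM (log2 ratio −1.65), and the treated library was 4.01-fold over the vehicle library (log2 ratio 1.96). Cas+T stood slightly above Sham as deposited (log2 ratio 0.31), but not after median scaling (−0.03).

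Srd5a1 (ENSMUSG00000021594; chromosome 13, 69573449 to 69611442) encodes the type 1 isozyme, which also reduces progesterone and glucocorticoids. It was at 18.4 TPM in Sham, 7.19 TPM in Cas+CO and 18.3 TPM in Cas+T. Only the vehicle library was low, 2.56-fold under Sham (log2 ratio −1.24), and Cas+T differed from Sham by −0.01 on the log2 scale, or −0.34 after median scaling. Srd5a2 was the more abundant of the pair in every library, by 4.61-fold in Sham, 3.66-fold in Cas+CO and 5.77-fold in Cas+T. Together the pair summed to 103 TPM in Sham, 33.5 TPM in Cas+CO and 124 TPM in Cas+T.

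Srd5a3 (ENSMUSG00000029233; chromosome 5, 76140271 to 76155504) shares the family name, but its product is known mainly for reducing polyprenol to dolichol, the lipid carrier of N-linked glycans. It was at 12.5 TPM in Sham, 16.3 TPM in Cas+CO and 17.5 TPM in Cas+T, within 2-fold in all 3 comparisons. Its direction in Cas+CO against Sham depended on the scaling: the log2 ratio was 0.36 as deposited and −0.38 after median scaling. In Sham its level was 0.682 times that of Srd5a1, and in Cas+CO 2.27 times. Tecr, a structural relative that completes fatty acid elongation, was at 269, 215 and 325 TPM in Sham, Cas+CO and Cas+T, with a log2 ratio in Cas+CO against Sham of −0.32 as deposited and −1.11 after median scaling. Tecrl, the other relative listed, stayed at 0.05 TPM or less.

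Cyp17a1 (ENSMUSG00000003555; chromosome 19, 46667165 to 46673172) had the widest range of the set. Its product adds the 17-alpha hydroxyl group to pregnenolone and progesterone and then cleaves the side chain to give androgen precursors; Leydig cells of the testis are its best known site in male mice. It was at 49.6 TPM in Sham, 0.76 TPM in Cas+CO and 41.8 TPM in Cas+T. The vehicle library was 65.2-fold under Sham in TPM, and the treated library 55.0-fold over the vehicle library. The ratios rest on a value under 1 TPM in Cas+CO, where the gene missed the minimum, so their size is uncertain; on the log2(TPM + 1) scale they were −4.84 and 4.60. The gene entered the first comparison only through Sham and the second only through Cas+T, so it had to differ in these directions. Of the 16182 genes compared, 0.581% had a lower log2 ratio in Cas+CO against Sham, a place that rests on the same low value. Its level in Cas+T, from mice without testes, was within 2-fold of Sham (log2 ratio −0.24).

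The measured markers of steroid-producing cells stood at 1.76 TPM or less in all 3 libraries. Of the 9 Leydig and adrenal markers listed, 4 had values, and together these summed to 1.85 TPM in Sham, 1.77 TPM in Cas+CO and 2.29 TPM in Cas+T. Cyp11a1, which makes pregnenolone from cholesterol, had no signal in Sham (listed at 0), 0.07 TPM in Cas+CO and 0.06 TPM in Cas+T. Star, which carries cholesterol into mitochondria, was at 0.22, 1.39 and 0.47 TPM. Hsd17b3, which makes testosterone in Leydig cells, was at 1.46, 0.31 and 1.76 TPM. Cyp21a1, an adrenal enzyme, reached 0.17 TPM in Sham and was 0 in both castrated libraries. The electron donor Por, which serves all microsomal P450 enzymes, was at 90.4, 94.5 and 125 TPM, and Cyb5a, which aids side-chain cleavage by Cyp17a1, at 595, 505 and 615 TPM. Both lay within 2-fold as deposited; after median scaling Cyb5a passed the limit in Cas+CO against Sham, with a log2 ratio of −1.03.

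Akr1b7 (ENSMUSG00000052131; chromosome 6, 34412334 to 34423142) was the most abundant of the set in each library. It encodes an aldo-keto reductase first described as a vas deferens protein of the mouse; it clears aldehydes such as those released in steroid synthesis and can make prostaglandin F. It was at 4520 TPM in Sham, 1673 TPM in Cas+CO and 3547 TPM in Cas+T, which made it the 26th, 53rd and 28th most abundant gene. In Sham it held 0.452% of all TPM. The vehicle library was 2.70-fold under Sham (log2 ratio −1.43) and the treated library 2.12-fold over the vehicle library (log2 ratio 1.08). Of the members compared it stood lowest in Cas+T against Sham (−0.35). Its promoter window is the one with the TGTTCT match above.

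Of the chromosome 6 neighbours of Akr1b7, Akr1b8 and Akr1b10 went the other way. Akr1b8, an aldose reductase relative, was at 4.20 TPM in Sham, 14.9 TPM in Cas+CO and 5.05 TPM in Cas+T. Akr1b10, named after its values were seen, was at 23.7, 62.3 and 37.5 TPM. Both were at least 2-fold higher in Cas+CO than in Sham as deposited (log2 ratios 1.61 and 1.35) and within 2-fold after median scaling (0.88 and 0.57). Akr1b3, the aldose reductase that turns glucose into sorbitol, was also named after its values were seen and was at 62.7, 77.1 and 82.5 TPM. Its log2 ratio in Cas+CO against Sham was 0.29 as deposited and −0.49 after median scaling. In Cas+T against Cas+CO it was 0.10 and 0.54. The longest transcripts of Akr1b7 and Akr1b10 were 89.4% identical over 963 aligned bases, and those of Akr1b7 and Akr1b8 86.3% over 930 bases. How the authors' counting shared reads between such copies is not given in the sources used here, so the low values of Akr1b8 and Akr1b10 beside the far more abundant Akr1b7 are uncertain.

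Akr1c14 (ENSMUSG00000033715; chromosome 13, 4049011 to 4090688) encodes a 3-alpha-hydroxysteroid dehydrogenase, which turns dihydrotestosterone into a weak androgen. It was the least abundant member in Sham and in Cas+T, at 0.08 TPM in Sham, 1.66 TPM in Cas+CO and 0.25 TPM in Cas+T. Only the vehicle library passed 1 TPM, so the gene entered the first 2 comparisons through the library where it was high and had to differ there. Its log2 ratios of 1.30 and −1.09 describe values of 1.66 TPM or less.

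The Akr1c genes on the same stretch of chromosome 13 spanned both directions. Akr1c12 was at 69.9 TPM in Sham, 9.92 TPM in Cas+CO and 56.9 TPM in Cas+T (log2 ratios −2.70 and 2.41). Akr1c13 and Akr1c19, named after their values were seen, were at 147, 57.2 and 139 TPM and at 211, 120 and 240 TPM. Akr1c18, which inactivates progesterone, went the other way, at 0.09 TPM in Sham, 23.2 TPM in Cas+CO and 5.01 TPM in Cas+T. It was the gene among all 32 other steroid-converting genes compared that differed at least 2-fold between Cas+T and Sham (log2 ratio 2.46). Against Sham it passed the minimum only through the castrated library, Cas+CO in the first comparison and Cas+T in the third. Each time it entered through the library where it was high and had to differ in that direction. Akr1cl, a relative on chromosome 1, was at 1.31, 13.1 and 2.84 TPM. Transcripts of Akr1c12 and Akr1c13 were 94.5% identical over 1262 bases, so the split between that pair is uncertain, while Akr1c14 was 77.3% identical to Akr1c18 over 982 bases.

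Hsd11b1 (ENSMUSG00000016194; chromosome 1, 193221634 to 193264075) encodes the enzyme that regenerates active glucocorticoid from its inert keto form inside cells; fat and liver are known for it. It was at 11.4 TPM in Sham, 30.7 TPM in Cas+CO and 11.9 TPM in Cas+T. The vehicle library was 2.69-fold over Sham (log2 ratio 1.35) and the treated library 2.59-fold under the vehicle library (−1.30). After median scaling these ratios were 0.59 and −0.86, within 2-fold. H6pd, which supplies the NADPH that Hsd11b1 uses, was at 16.8, 43.0 and 18.4 TPM, with log2 ratios of 1.30 and −1.18 as deposited and 0.53 in the first after median scaling. Hsd11b2, which works in the opposite direction and inactivates glucocorticoid, was at 0.34, 7.11 and 0.62 TPM. Its log2 ratio in Cas+CO against Sham was 2.60 as deposited and 1.93 after median scaling, and Hsd11b1 exceeded Hsd11b2 by 33.5-fold in Sham, 4.32-fold in Cas+CO and 19.1-fold in Cas+T. Hsd11b2 passed the 1 TPM minimum only in Cas+CO, so the size of its ratios, and of those over it in Sham and Cas+T, is uncertain.

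The 17-beta-hydroxysteroid dehydrogenases of the set had Sham lowest and Cas+CO highest as deposited, an order that Hsd17b4 did not keep after median scaling. Hsd17b11 (ENSMUSG00000029311; chromosome 5, 103989762 to 104021919) encodes an enzyme of lipid droplets. It was at 43.4 TPM in Sham, 137 TPM in Cas+CO and 61.8 TPM in Cas+T. The vehicle library was 3.15-fold over Sham (log2 ratio 1.63, or 0.84 after median scaling), and the treated library 2.21-fold under the vehicle library (−1.13, or −0.69 after median scaling). In Cas+CO it was the second most abundant member, a place that Srd5a2 held in Sham.

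Hsd17b10 (ENSMUSG00000025260; chromosome X, 152001845 to 152004442) encodes a mitochondrial enzyme of isoleucine breakdown that is also a part of mitochondrial RNase P. It was at 54.4 TPM in Sham, 102 TPM in Cas+CO and 70.4 TPM in Cas+T. Hsd17b4 (ENSMUSG00000024507; chromosome 18) encodes the bifunctional enzyme of peroxisomal fatty acid oxidation, which also oxidizes estradiol. It was at 39.1 TPM in Sham, 64.5 TPM in Cas+CO and 40.9 TPM in Cas+T. Both genes lay within 2-fold throughout, with log2 ratios in Cas+CO against Sham of 0.89 and 0.71 as deposited and 0.10 and −0.07 after median scaling, where Hsd17b4 changed sign. The 3 genes together summed to 137 TPM in Sham, 303 TPM in Cas+CO and 173 TPM in Cas+T, and Hsd17b11 stood over Hsd17b4 by 1.11-fold, 2.12-fold and 1.51-fold.

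Levels of the set could be ordered within a library, although without replicates no neighbours in the order can be called different. In Sham the order from the top was Akr1b7, Srd5a2, Hsd17b10, Cyp17a1, Hsd17b11, Hsd17b4, Srd5a1, Srd5a3, Hsd11b1 and Akr1c14. In Cas+CO it was Akr1b7, Hsd17b11, Hsd17b10, Hsd17b4, Hsd11b1, Srd5a2, Srd5a3, Srd5a1, Akr1c14 and Cyp17a1. In Cas+T, Srd5a2 was again second, and Cyp17a1 stood between Hsd17b11 and Hsd17b4.

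A wider list of 64 other steroid-converting genes in 7 role groups was compared in the same way; 44 had values and the rest were not analysed here. In Cas+CO against Sham, 13 of 36 were at least 2-fold higher, where 37.6% of all genes were, and 5 were lower, where 6.48% were. After median scaling 6 were higher and 10 lower, where 13.7% and 12.4% of all genes were. In Cas+T against Cas+CO, 7 of 36 were higher and 11 lower, where 6.9% and 23.4% of all genes were. After median scaling 9 were higher and 8 lower, where 10.0% and 12.8% were. In Cas+T against Sham, 1 of 32 was higher and 0 lower, where 5.19% and 2.75% of all genes were. The median log2 ratio was 0.37 over the list and 0.76 over all genes in the first comparison, and −0.27 and −0.46 in the second. The counts by role that follow are to be read against these shares. As deposited, some genes called passed the minimum only through the library where they were high. In Cas+CO against Sham these were Akr1c18, Ugt1a1, Hsd11b2 and Hsd17b14 among the higher genes and Hsd17b2 among the lower. In Cas+T against Cas+CO these were Hsd17b2 and Hsd17b3 among the higher genes and Ugt1a1, Hsd11b2, Hsd17b14 and Cyp7b1 among the lower. In Cas+T against Sham it was Akr1c18.

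Among genes of cholesterol import and side-chain cleavage, 2 of 5 were higher in Cas+CO than in Sham (1 after median scaling) and 0 lower. They were Fdxr, the mitochondrial ferredoxin reductase, at 1.5 TPM in Sham, 8.17 TPM in Cas+CO and 3.14 TPM in Cas+T, and Tspo, an outer mitochondrial membrane protein, at 28.3, 79.8 and 26.4 TPM. Stard3 (18.6, 34.6 and 21.4 TPM) and the electron carrier Fdx1 (16.8, 23.5 and 21.5 TPM) lay within 2-fold. Of 4 P450 partners and electron donors compared, 2 were higher, H6pd and the reductase Cyb5r3 (54.5, 121 and 63.0 TPM), and neither was after median scaling. Hsd3b7, which acts in bile acid synthesis, was the single 3-beta-hydroxysteroid dehydrogenase with values, at 39.5, 19.7 and 45.9 TPM. Its log2 ratio was 1.18 in Cas+T against Cas+CO, past 2-fold, and −0.97 in Cas+CO against Sham, just within 2-fold (−1.71 after median scaling).

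Of 6 other 17-beta and 11-beta hydroxysteroid dehydrogenases compared, 2 were higher and 1 lower in Cas+CO than in Sham (2 and 2 after median scaling). Hsd17b12, which elongates fatty acids, and Hsd17b7, which acts in cholesterol synthesis, lay within 2-fold, at 86.6, 92.5 and 98.6 TPM and at 8.04, 8.66 and 11.2 TPM. The higher genes were Hsd11b2 and Hsd17b14, the latter named after its values were seen and at 0.42 TPM in Sham, 4.05 TPM in Cas+CO and 0.60 TPM in Cas+T. Hsd17b2, the lower gene, which inactivates testosterone and estradiol and was named after its values were seen, was at 1.76 TPM in Sham, had no signal in Cas+CO (listed at 0) and stood at 1.61 TPM in Cas+T. Hsd11b2 and Hsd17b14 passed the 1 TPM minimum only through Cas+CO, and Hsd17b2 only through Sham, so each entered the comparison through the library where it was high, and the counts of this group support nothing further. Of 8 other aldo-keto reductases, 4 were higher and 2 lower (2 and 3 after median scaling).

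Among 11 genes of hydroxylation, sulfation and glucuronidation, 3 were higher and 2 lower in Cas+CO than in Sham (1 and 2 after median scaling), where 37.6% and 6.48% of all genes were as deposited. The lower genes were both sulfotransferases. Sult1e1, the estrogen sulfotransferase, was at 24.9 TPM in Sham, 3.44 TPM in Cas+CO and 25.7 TPM in Cas+T (log2 ratios −2.55 and 2.59). Sult2b1, which sulfates cholesterol and was named after its values were seen, was at 34.2, 14.9 and 37.6 TPM. The higher genes were the glucuronosyltransferase Ugt1a1, at 0.25, 8.71 and 0.77 TPM, which shares exons with its family neighbours so that its own share of reads is uncertain, and the P450 genes Cyp7b1 (1.0, 5.09 and 0.80 TPM) and Cyp1b1 (1.67, 6.49 and 1.66 TPM). Ugt1a1 passed the minimum only through Cas+CO.

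**Figure D3:**
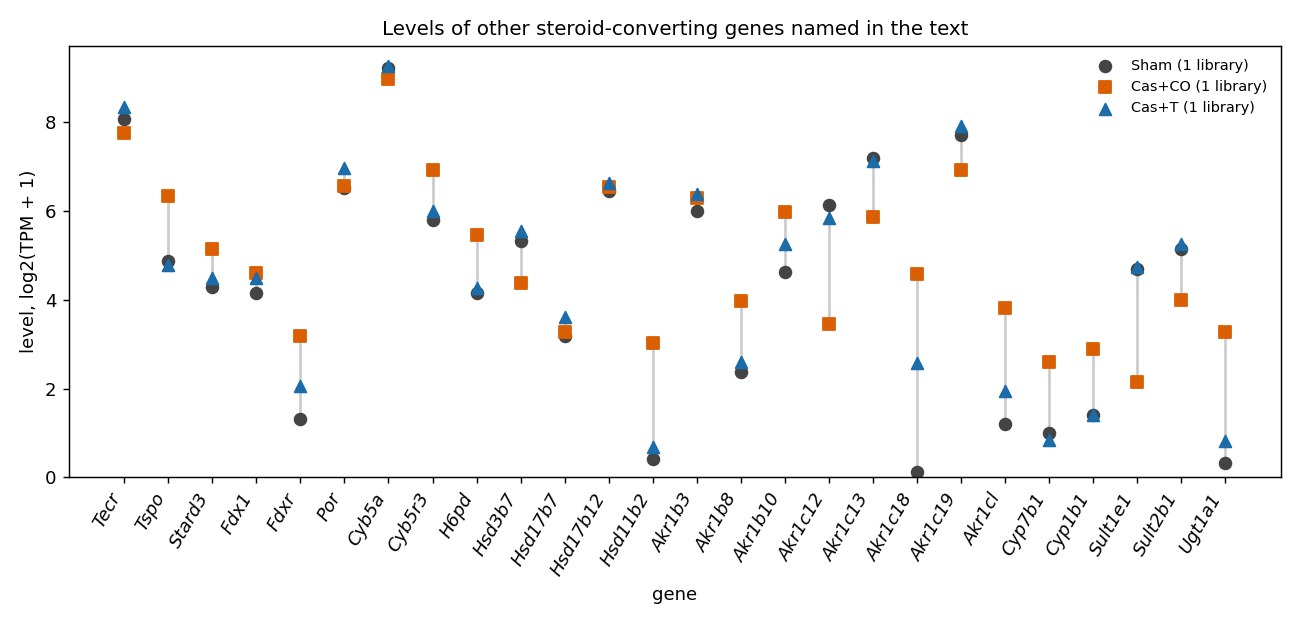
Levels of 26 other steroid-converting genes on the log2(TPM + 1) scale, with 1 symbol per library. Among others, the Cas+CO square lies lowest for Akr1c12, Akr1c13, Sult1e1 and Sult2b1 and highest for Hsd11b2, Akr1c18, Akr1cl and Ugt1a1.

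Marker lists of other cell types moved between the same libraries. Beside the higher members Hsd11b1, Hsd17b11 and Akr1c14, the adipocyte markers were at least 2-fold higher for 10 of 10 in Cas+CO than in Sham. As deposited, 37.6% of all genes were higher, and the marker counts were not repeated after median scaling. The adipocyte sum was 46.3 TPM in Sham, 2329 TPM in Cas+CO and 126 TPM in Cas+T. Fibroblast and matrix markers were higher for 7 of 8 (107, 1305 and 111 TPM in sum) and macrophage markers for 8 of 8 (78.7, 692 and 128 TPM in sum), and none of the markers of these 3 lists was at 0 in any library. The part of these cell types in the levels of Hsd11b1, Hsd17b11 and Akr1c14 was not tested. Of the 4 liver markers, Cyp2e1 held 82.6 of 83.3 TPM in Cas+CO, and the sum was 3.17 TPM in Sham and 5.42 TPM in Cas+T.

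Beside the lower members, all 8 principal cell markers and all 8 initial segment markers were lower in Cas+CO than in Sham, and 0 of 6 general epithelial markers were. Of all genes, 6.48% were lower as deposited. The principal cell sum was 96102 TPM in Sham, 8442 TPM in Cas+CO and 69857 TPM in Cas+T. Crisp1 alone held 6654 TPM of the Cas+CO sum. The initial segment sum, for the most proximal stretch of the epididymis, was 13033, 563 and 1033 TPM, with Lcn8, Lcn9 and Defb48 listed at 0 in Cas+CO and Lcn9 at 0 in Cas+T. Lcn2 alone held 538 TPM of this sum in Cas+CO and 1004 TPM in Cas+T, so both sums rest almost wholly on 1 gene. In Cas+T 6 of 8 initial segment markers and 2 of 8 principal cell markers were at least 2-fold under Sham, where 2.75% of all genes were. All 9 members compared, with Srd5a1, Srd5a2, Akr1b7 and Cyp17a1 among them, were within 2-fold of Sham. Most genes were too, since 5.19% were higher and 2.75% lower. The part of epithelial cell state or number in the lower members was not tested. Scaling the libraries to the 6 epithelial markers, added after seeing the data, gave log2 ratios in Cas+CO against Sham of −1.61 for Srd5a1, −2.06 for Srd5a2, −1.85 for Akr1b7 and −5.01 for Cyp17a1. Sperm and germ cell markers summed to 59.8 TPM in Sham, to 0 in Cas+CO and to 0.12 TPM in Cas+T, so sperm RNA is a further difference between Sham and both castrated libraries.

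**Figure D4:**
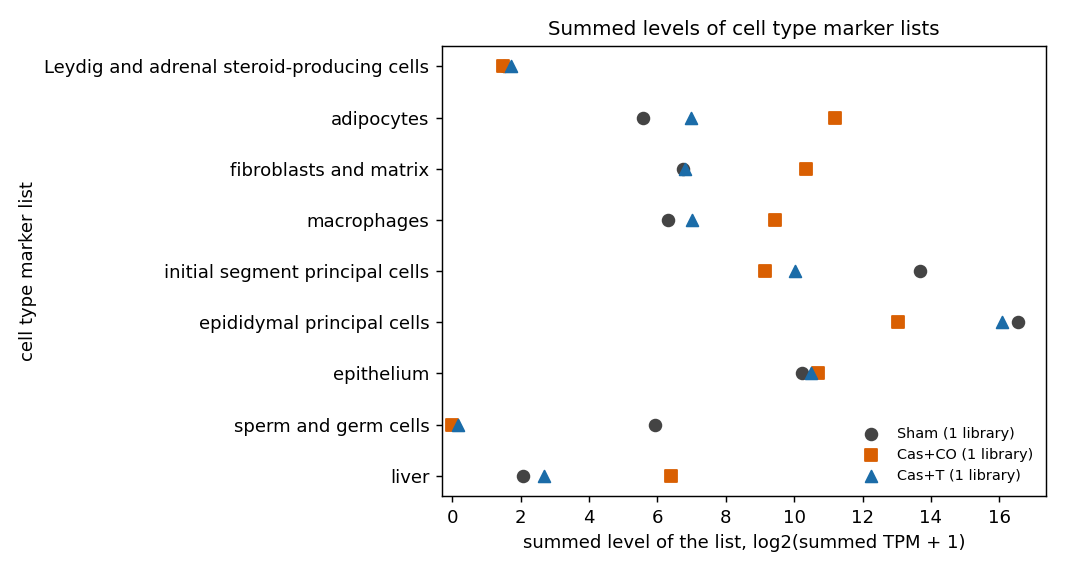
Summed level of each cell type marker list on the log2(summed TPM + 1) scale, with 1 symbol per library. Adipocyte, fibroblast and macrophage sums are highest in Cas+CO, principal cell sums are lowest there, and the Leydig and adrenal sum lies between 1.77 and 2.29 TPM, where the Sham point is partly covered.

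Genes with the most similar pattern were looked up among 9498 named genes that reached 10 TPM, by the distance between log2(TPM + 1) values centred on each gene's mean over the 3 libraries. The 3 nearest to Srd5a2 were Fam189a2 (distance 0.022), Btg3 (0.053) and Chst8 (0.055); Fam189a2 was at 87.6 TPM in Sham, 27.8 TPM in Cas+CO and 111 TPM in Cas+T. The 3 nearest to Srd5a1 were Itm2b (0.036), Manf (0.044) and Erlec1 (0.057), of which Itm2b was at 9247, 4037 and 9241 TPM. The 3 nearest to Cyp17a1 were farther away: Wfdc9 (0.178) at 210, 7.42 and 173 TPM, Isg20 (0.291) and Defb37 (0.314). With only 3 libraries many genes share a pattern by this measure: 64 genes lay within 0.2 of Srd5a1, 37 within 0.2 of Srd5a2 and 1 within 0.2 of Cyp17a1.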

How the data were processed

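Total RNA of epididymis was column-extracted per group and sequenced on standard Illumina libraries, per the labels' protocols. The sources used here give no aligner, counting tool, genome build or pooling of mice. The deposited log2 values were read as log2(TPM + 1): undoing the log2 and taking away 1 gave multiples of 0.01 (within 0.001) for 100% of values under 1000 and summed to 1000000 in each library. A value of 0 means listed at 0. The 23538 rows were named through GENCODE M21 (GRCm38) by Ensembl identifier (23518 matched; 937 had no symbol in the files), and rows sharing a symbol were summed, which left 23519 genes. Coordinates are from GENCODE M21, promoters from RefSeq.

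Ratios are differences of log2(TPM + 1) for genes at 1 TPM or more in either library, called at 2-fold; TPM folds carry no pseudocount. With 1 library per group no test was run, and TPM keep no depth. The members, gene lists and comparisons were chosen with earlier results of these data known. All members are named; of each role group, up to 4 genes at 5 TPM or more with the largest ratios are named, and others are marked as named after their values were seen; Hsd17b3, Star, Cyp11a1 and Cyp21a1 stand as markers and Tecrl as the rest of its group. Leydig, adrenal, adipocyte, fibroblast, macrophage, initial segment, principal cell, epithelial, sperm and liver markers were summed. Alternatives were 2 scalings, a smaller pseudocount (0.1), minimums of 0 and 10 TPM, a 4-fold limit and the highest row per symbol; scaling to epithelial markers was added after seeing the data. For a single ratio, an alternative counted as a change when it crossed the 2-fold limit. Transcripts were aligned with blastn (BLAST 2.17.0). The calling step was tested on simulated data in which most genes were left unchanged. That test does not cover the shift of the median gene between these libraries. Python 3.11.15, NumPy 2.4.6, pandas 2.3.3 and matplotlib 3.10.9 were used.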

Additional observations from a re-analysis of the deposited data

How the results depend on the processing

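Srd5a1, Srd5a2, Akr1b7 and Cyp17a1 kept their direction and stayed past 2-fold in Cas+CO against Sham and in Cas+T against Cas+CO under every scaling, pseudocount and minimum tried. With a 4-fold limit, lower members in Cas+CO against Sham numbered 1 and higher members 0, and in Cas+T against Cas+CO 1 was higher and 0 lower. Median scaling left 0 members higher in Cas+CO against Sham and 0 lower in Cas+T against Cas+CO, since Hsd17b11 and Hsd11b1 came within 2-fold and Akr1c14 missed the minimum. Scaling to epithelial markers left 2 higher members in Cas+CO against Sham, with Hsd11b1 within 2-fold (log2 ratio 0.95). In Cas+T against Cas+CO it left 1 lower member, Hsd11b1. No ratio past 2-fold changed sign.

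For the other steroid-converting genes, counts in Cas+CO against Sham were 6 higher and 10 lower under median scaling, 8 lower without the 50 most abundant genes, 7 higher at a minimum of 10 TPM, and 4 higher and 2 lower at a 4-fold limit. In Cas+T against Cas+CO they were 5 lower at a minimum of 10 TPM, and 2 higher and 3 lower at a 4-fold limit. In Cas+T against Sham they were 3 higher with a pseudocount of 0.1 and 0 higher at a minimum of 10 TPM. Beyond the scaling shift and the genes each limit removes, the cause of these changes was not tested. Depth is unknown, and ratios of genes near 1 TPM, such as Akr1c14, are the least certain. No paired analysis was possible because each group has 1 library.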
